A study of Mus musculus with 3 samples.

Results

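A set of 10 germ cell genes forms the subject here: Dazl, Mnd1, Zcwpw1, Tex19.1, Dpep3, Tex14, Slc25a31, Sohlh2, Stra8 and Tex15. They are 10 of the 34617 gene rows of the table, and were chosen by their values in these same libraries, as germ cell genes at or above 1 in the O/Tet3 library and below 1 in the mOSN library. Those values are therefore given as a description, with no test. The study asked what 5-hydroxymethylcytosine (5hmC), an oxidised form of methylated cytosine, does in olfactory neurons, and it includes ribosomal RNA-depleted RNA-seq of cells sorted from the main olfactory epithelium of mice aged 4 weeks. The O/Tet3 library came from FVB mice carrying OMP-tTA and tetO-Tet3-GFP, in which a transactivator driven by the olfactory marker protein gene switches on Tet3 fused to GFP in mature neurons. The mOSN library, the control, came from EGFP-positive cells of C57BL/6J mice with OMP-ires-EGFP, which marks mature olfactory sensory neurons. Each group is 1 library, the labels do not give how many mice were pooled, and genotype, strain and library cannot be told apart. Xist, transcribed in female cells, was at 5.79 in O/Tet3 and 0.0137 in mOSN, and the Y-linked gene Ddx3y was at 5.54 in O/Tet3 and 4.09 in mOSN, so the sexes of the mice used cannot be told apart from these factors either.

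Germ cell genes serve the making of eggs and sperm and are silent in most somatic cells. In the mouse many of them have CpG-rich promoters that become methylated in the embryo after implantation, and repressor complexes that contain E2f6, Mga and Max add to the silencing. Tet enzymes oxidise methylated cytosine, which is a step in its removal. In primordial germ cells methylation is erased and genes such as Dazl are turned on.

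The values are the table's log2 values turned back to the linear scale, and their form is that of the length-scaled FPKM printed by Cuffdiff, although the file names no unit. Read depth is not in the file. From the steps in which low values move, a single read counted for 1.89 times as much in O/Tet3 as in mOSN, so that a value of a given size rests on fewer reads in O/Tet3. Tet3, the gene that the transgene carries, had a value of 145 in O/Tet3, against 3.72 in mOSN. The Tet3 row does not separate transgene from endogenous transcripts. Rows that reached 1 in O/Tet3 or in mOSN were compared on the value + 1 scale, and of all 12943 such rows 16.5% were at least 2-fold higher in O/Tet3 and 12% lower. Over the 9 listed Tet and demethylation genes 4, Tet3 itself among them, were higher by this measure and 0 lower. The 12 mature olfactory neuron markers were present in both libraries, and all 12 were at least 2-fold lower in O/Tet3, with Omp at 139 in O/Tet3 and 298 in mOSN. Of 7 compared markers of immature neurons and progenitors, 4 were at least 2-fold higher in O/Tet3 and 0 lower, and the whole list of 12 summed to 159 in O/Tet3 and 64.3 in mOSN. The 18 markers of sustentacular, basal, glial and blood cells summed to 55.6 in O/Tet3 and 96.9 in mOSN. O/Tet3 lacked any value above 0 for 6, while all 18 were above 0 in mOSN. In mOSN these 6 ran from 0.0261 for Trp63 to 1.58 for Ascl3. Over all 34617 rows 15184 were listed at 0 in O/Tet3 and 13399 in mOSN, so the zeros are not read as fewer such cells. Hemoglobin and Cyp2a5 make up much of both sums, and of the 10 compared markers O/Tet3 was lower by 2-fold or more for 4 and higher for 1, Pou2f3, at 2.90 in O/Tet3 and 0.582 in mOSN. The part of these cell mixtures in the germline values was not tested, and in a bulk library more cells of a type cannot be told apart from more RNA per cell.

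Dazl, an RNA-binding protein that controls translation in germ cells, had by far the highest value of the 10. Its value was 97.1 in O/Tet3, against 0.135 in mOSN, a 718-fold ratio of the values and a log2 ratio of 6.43 on the value + 1 scale. Dazl ranked 229 among all rows of the O/Tet3 library and its value was 69.8% of that of Omp there. Mnd1, which with Psmc3ip helps the meiotic recombinases to exchange strands, was at 41.9 in O/Tet3 and listed at 0 in mOSN. A listed 0 can be a failed estimate, so no fold is given against it. Dazl and Mnd1 together held 80.2% of the summed value of the 10 genes in O/Tet3, and the sum was 173 in O/Tet3 and 1.76 in mOSN.

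Among all 34617 rows, 1593 met the same 2 thresholds as the 10 genes, which is 4.6% of rows, and 4.09% crossed the other way, at or above 1 in mOSN and below 1 in O/Tet3. Among 20688 rows matched to RefSeq protein-coding genes 5.14% met the thresholds of the 10 genes. All 10 genes do so by their choice, and nothing is read from that count. Among the 1593 rows Dazl ranked 8 by its O/Tet3 value, Mnd1 ranked 19 and Zcwpw1 ranked 68. Among the 1064 protein-coding rows of this kind Dazl ranked 2 and Mnd1 ranked 4. Tex15 ranked 1273 of the 1593, so the 10 genes spread from near the top to the lower part of these rows. On the value + 1 scale, 9 of the 10 were at least 2-fold higher in O/Tet3. The rule used the same contrast, and 16.5% of all compared rows were as much higher.

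**Figure D1:**
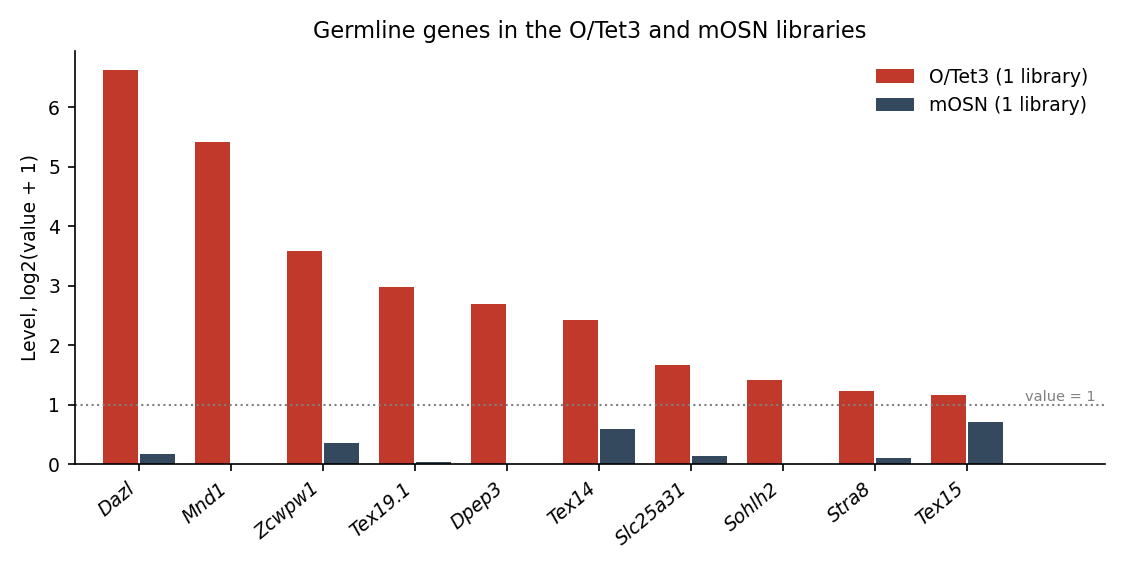
Level of each of the 10 germline genes as log2(value + 1) in the O/Tet3 library (left bar of each pair) and the mOSN library (right bar), 1 library each, with no error bars because there are no replicates. Dazl and Mnd1 stand far above the dotted line at a value of 1 in O/Tet3, while Tex15 differs least between the libraries, at 1.24 in O/Tet3 and 0.63 in mOSN.

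The next group had values between 4 and 12 in O/Tet3. Zcwpw1, a histone mark reader that acts with Prdm9 in the repair of meiotic breaks, was at 11.1 in O/Tet3 and 0.284 in mOSN, a 39.0-fold ratio. Tex19.1, which restrains retrotransposons in germ cells and placenta, was at 6.88 in O/Tet3 and 0.0263 in mOSN, a 261-fold ratio. That mOSN value is close to 0.026, the most frequent value above 0 among olfactory receptor rows in mOSN. It may rest on very few reads, so the size of the ratio is uncertain. Dpep3, a membrane-bound dipeptidase of the testis, was at 5.48 in O/Tet3 and listed at 0 in mOSN. Tex14, needed for the bridges between germ cells, was at 4.36 in O/Tet3 and 0.507 in mOSN. The Tex14 ratio of 8.61 was smaller than those of Zcwpw1 and Tex19.1, and Tex14 had a lower O/Tet3 value and a higher mOSN value than either.

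The other 4 genes lay near the threshold. Slc25a31, the ADP/ATP carrier of germ cell mitochondria, was at 2.20 in O/Tet3 and 0.0995 in mOSN. Sohlh2, a basic helix-loop-helix factor of spermatogonia and oocytes, was at 1.66 in O/Tet3 and listed at 0 in mOSN. Stra8, the retinoic acid-induced gene of meiotic entry, was at 1.35 in O/Tet3 and 0.0797 in mOSN. Tex15, known in the mouse for meiotic break repair and transposon silencing, was at 1.24 in O/Tet3 and 0.630 in mOSN, a 1.97-fold ratio of the values. Its log2 ratio of 0.46 on the value + 1 scale was under the 2-fold bound. The median log2 ratio of rows reaching 1 in O/Tet3 and in mOSN was 0.21, and relative to this shift the log2 ratio was 0.26 for Tex15 and 0.91 for Stra8. Just outside the threshold were Hsf2bp, at 0.975 in O/Tet3 and 0.0232 in mOSN, and Tex12, at 0.938 in O/Tet3 and listed at 0 in mOSN. The order of the 10 levels has no measured spread, and with 1 library no neighbours in it can be said to differ beyond error.

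**Figure D2:**
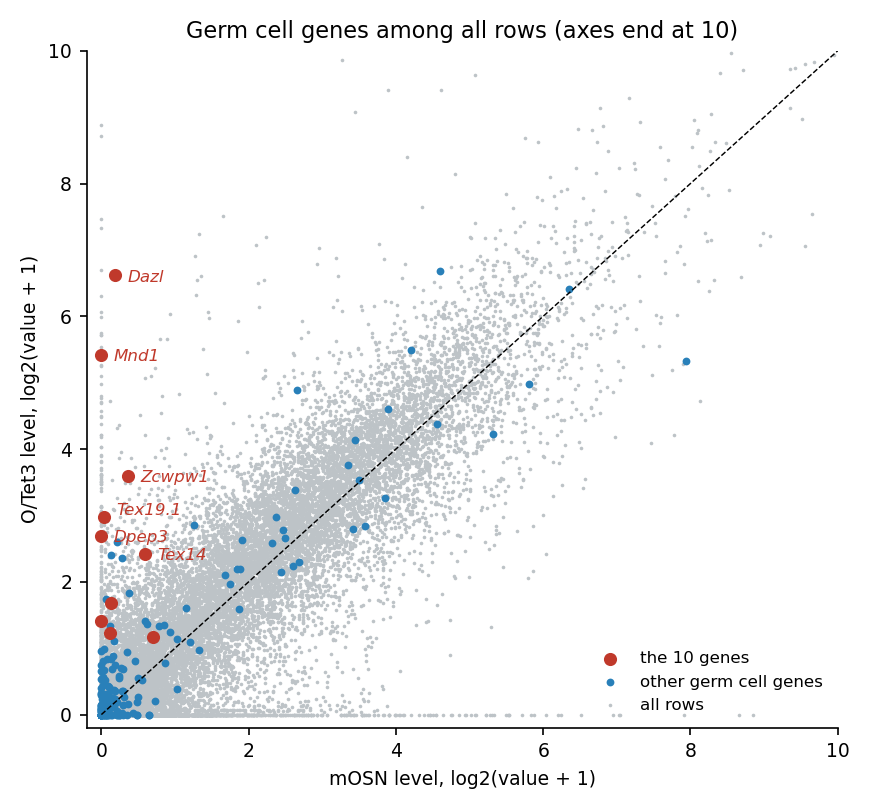
Level of every row as log2(value + 1), mOSN on the horizontal and O/Tet3 on the vertical axis, with the 10 genes in red, the other germ cell genes in blue and all rows in grey. Axes end at 10, rows beyond are not drawn, and the dashed line marks equal values. Most blue points lie near the origin, below 1 in both libraries, while Dazl and Mnd1 lie far above the line.

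Promoter sequence was a feature that the choice of genes had not used. RefSeq promoter windows of build GRCm38.p6, from 250 bases before to 50 bases after the start, were matched by symbol for 9 of the 10 genes, with 2 starts for Zcwpw1, which gives 10 promoters. All matched genes are on autosomes, with Mnd1, Sohlh2 and Slc25a31 on chromosome 3 and Tex14 and Tex19.1 on chromosome 11. Dazl is shown because its window held the most CpG dinucleotides, 28, and Stra8 because its window held the fewest, 10. The Dazl stretch is chr17:50293621-50293870 on the minus strand and the Stra8 stretch is chr6:34920698-34920947 on the plus strand. Both are the 250 bases before the start, written from 5′ to 3′ with each CpG in capitals, 20 in the Dazl stretch and 5 in the Stra8 stretch.
Dazl: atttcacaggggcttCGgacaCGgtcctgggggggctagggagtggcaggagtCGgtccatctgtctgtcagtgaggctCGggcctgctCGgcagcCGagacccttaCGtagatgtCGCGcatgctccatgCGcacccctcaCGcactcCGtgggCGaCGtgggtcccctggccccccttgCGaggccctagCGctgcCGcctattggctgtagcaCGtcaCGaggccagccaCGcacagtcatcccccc
Stra8: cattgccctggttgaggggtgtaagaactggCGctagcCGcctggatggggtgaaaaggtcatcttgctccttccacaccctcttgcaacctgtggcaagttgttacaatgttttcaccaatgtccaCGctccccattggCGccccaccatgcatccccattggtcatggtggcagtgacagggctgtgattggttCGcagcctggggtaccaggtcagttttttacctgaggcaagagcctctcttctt

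The 10 promoters had a median of 17 CpGs in the 300-base window, against 13 over 21263 promoters of protein-coding genes and 7 over all 32851 promoters. That count was 16 over 205 promoters of other germ cell genes. Protein-coding rows that met the same value thresholds, without the 10 genes, also had a median of 16, and rows below 1 in both libraries had 5. The promoters of the germline genes thus lay close to both of these comparison sets and above the silent protein-coding rows as a whole. Most other germ cell genes were silent as well, with 159 of 206 rows below 1 in both libraries. A CpG count of this size was therefore not particular to genes that crossed. CpG number did not follow the O/Tet3 value among the genes in any simple order, since Mnd1, with the second highest value, had 12 CpGs and Slc25a31, at 2.20, had 22.

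**Figure D3:**
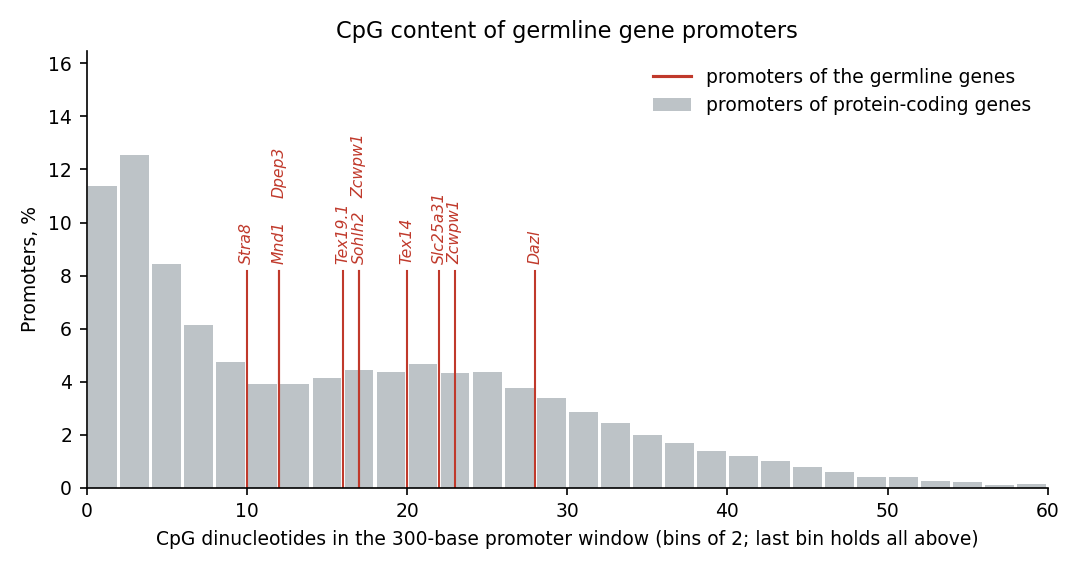
Number of CpG dinucleotides in the 300-base promoter window on the horizontal axis and the share of protein-coding promoters in each bin of 2, in percent, on the vertical axis. Red lines mark the 10 promoters of the 9 matched germline genes, which run from 10 for Stra8 to 28 for Dazl, to the right of the peak formed by CpG-poor promoters.

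The motifs TCCCGC, the core that E2f6 is known to bind, and CACGTG, the E-box bound by Mga with Max, were searched on both strands. TCCCGC was in 4 of the 10 promoters, those of Tex14, Tex19.1, Slc25a31 and Mnd1, and in 20.0% of all promoters, 25.8% of protein-coding promoters and 37.6% of promoters of other germ cell genes. CACGTG was in 1 of the 10, that of Slc25a31, and in 7.15% of all promoters and 17.1% of promoters of other germ cell genes. With 10 promoters these shares describe the genes and no test was made. TCCCGC began at position 4 after the start in Mnd1 and at position 21 in Slc25a31, where the first transcribed base is 1. The stretches of 250 bases before the start that hold a match are shown with the match in capitals, TCCCGC at −111 for Tex14, its reverse complement at −33 for Tex19.1, and CACGTG at −93 for Slc25a31. They are chr11:87404815-87405064, chr11:121145893-121146142 and chr3:40708621-40708870, all on the plus strand of GRCm38.p6. A match is not evidence of binding in these cells.
Tex14: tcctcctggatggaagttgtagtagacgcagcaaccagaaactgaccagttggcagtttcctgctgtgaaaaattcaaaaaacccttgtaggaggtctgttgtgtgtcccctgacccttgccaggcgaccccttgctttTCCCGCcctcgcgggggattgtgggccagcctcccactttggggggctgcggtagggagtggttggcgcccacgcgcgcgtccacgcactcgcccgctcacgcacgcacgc
Tex19.1: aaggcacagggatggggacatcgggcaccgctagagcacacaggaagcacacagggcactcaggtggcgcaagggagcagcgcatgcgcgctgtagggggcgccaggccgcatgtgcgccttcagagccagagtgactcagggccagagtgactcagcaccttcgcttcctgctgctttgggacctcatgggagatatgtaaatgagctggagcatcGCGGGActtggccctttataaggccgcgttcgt
Slc25a31: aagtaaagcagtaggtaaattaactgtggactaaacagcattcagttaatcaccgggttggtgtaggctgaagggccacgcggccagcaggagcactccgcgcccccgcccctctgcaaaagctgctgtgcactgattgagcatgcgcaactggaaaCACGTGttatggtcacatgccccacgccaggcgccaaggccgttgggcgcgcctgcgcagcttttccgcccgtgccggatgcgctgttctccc

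The genes beside the germline genes were also read. The germline genes were chosen by these values and their neighbours were not, so a larger difference at the germline gene is largely fixed by that choice. The next protein-coding gene on each side, in the RefSeq gene order of GRCm38.p6, had a row for all 20 positions. Of these 20 neighbours, 8 were below 1 in both libraries, and of the 12 compared, 3 were at least 2-fold higher in O/Tet3 and 0 lower, beside the 16.5% and 12% of all compared rows. Of the 20, 2 crossed the value of 1 as the germline genes did, Septin4 beside Tex14 and Tmem131l beside Mnd1. Over all rows 4.6% did so, and over protein-coding rows 5.14%, and 20 neighbours are too few to read against these shares. Log2 ratios of the 20 neighbours on the value + 1 scale ran from −0.22 to 1.25. Beside Dazl, Plcl2 was at 3.91 in O/Tet3 and 4.70 in mOSN, and Rftn1 was listed at 0 in both libraries. Beside Zcwpw1, Mepce was at 2.91 in O/Tet3 and 3.52 in mOSN, and Pilra at 0.293 in O/Tet3 and 0.0950 in mOSN. Beside Tex14, Rad51c, a recombination gene, was at 2.89 in O/Tet3 and 2.36 in mOSN, and on the other side Septin4 was at 1.38 in O/Tet3 and 0.384 in mOSN, a log2 ratio of 0.78 where Tex14 had 1.83.

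For Stra8 and Tex15 a neighbour had a larger log2 ratio than the germline gene. Wdr91, beside Stra8, was at 6.07 in O/Tet3 and 1.97 in mOSN, a log2 ratio of 1.25 where Stra8 had 1.12. Ppp2cb, beside Tex15, had a log2 ratio of 0.54 where Tex15 had 0.46. The other neighbours at least 2-fold higher stayed below their germline gene. Dclk1, beside Sohlh2, was at 5.94 in O/Tet3 and 2.46 in mOSN, a log2 ratio of 1.003 where Sohlh2 had 1.41. Tmem131l, beside Mnd1, was at 1.80 in O/Tet3 and 0.253 in mOSN, a log2 ratio of 1.16 where Mnd1 had 5.42. Whether reads of a neighbour reached a germline row was not tested, since the file holds no positions or strand.

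**Figure D4:**
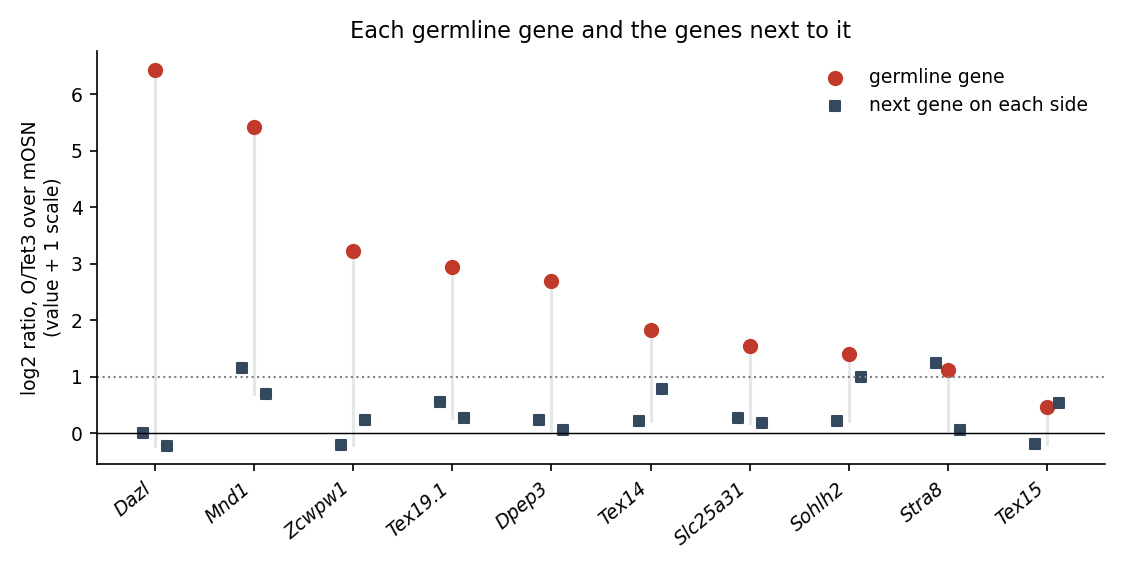
Log2 ratio of O/Tet3 over mOSN on the value + 1 scale for each germline gene (red circle) and for the next protein-coding gene on each side (dark squares), with the genes in order of their O/Tet3 value. The circle is well above its squares for the 5 genes on the left, and a square lies above the circle for Stra8 and Tex15.

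Partners and relatives of the 10 genes did not all share their pattern. Psmc3ip, the partner of Mnd1, was at 6.90 in O/Tet3 and 4.17 in mOSN, so it was above 1 in both libraries. Prdm9, which lays the histone marks that Zcwpw1 reads, was at 2.01 in O/Tet3 and 2.64 in mOSN, and Zcwpw2 was at 0.440 in O/Tet3 and 0.462 in mOSN. Boll, a relative of Dazl, was listed at 0 in O/Tet3 and at 0.109 in mOSN, and Sohlh1, the partner of Sohlh2, was listed at 0 in both. Tex19.2, the close relative next to Tex19.1, was at 0.480 in O/Tet3 and 0.0111 in mOSN, and how the authors' counting split reads between these similar genes is not given. The dipeptidase Dpep1 was listed at 0 in O/Tet3 and at 0.0401 in mOSN, and Dpep2 was at 0.284 in O/Tet3 and 0.226 in mOSN. The somatic ADP/ATP carriers had high values in both libraries, with Slc25a5 at 84.4 in O/Tet3 and 80.7 in mOSN and Slc25a4 at 23.3 in O/Tet3 and 13.8 in mOSN.

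Germ cell genes outside the 10 were counted in the same way. Of 210 further germ cell genes in 7 lists, 206 had a row, and 57 of these were listed at 0 in both libraries. The number below 1 in mOSN was 171, and 12 of them, 7.02%, were at least 1 in O/Tet3, against 6.85% of all rows below 1 in mOSN and 9.63% of such protein-coding rows. The 10 genes were picked from germ cell genes because they crossed, and leaving them out lowers this share, while the rows behind the other shares keep all that crossed. With the 10 put back, 22 of 181 low germ cell genes crossed, 12.2%. Each share depends on this choice, so neither is read against that of all rows. Of the 47 compared genes outside the 10, 10 were at least 2-fold higher in O/Tet3 and 2 lower, 21.3% and 4.26%, beside 16.5% and 12% of all compared rows. With the 10 put back, 19 of 57 were higher and 2 lower. The median log2 ratio of the 47 was 0.35, against 0.21 over all compared rows. Some list members, such as Sun1, are also used by other cells.

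**Figure D5:**
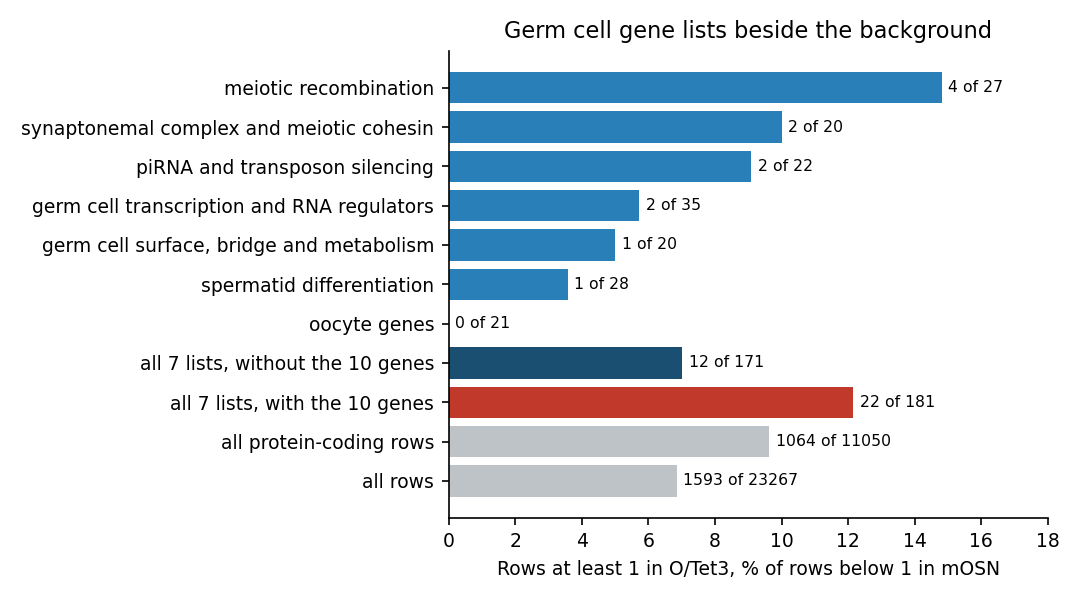
Share of rows that reach 1 in O/Tet3, in percent of the rows below 1 in mOSN, for 7 lists of germ cell genes without the 10 genes (blue), for these lists together without them (dark blue) and with them (red), and for all protein-coding rows and all rows (grey), with the counts printed at each bar. The lists together give 12 of 171 without the 10 genes and 22 of 181 with them, so the bar depends on whether genes picked for crossing are counted.

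The meiotic recombination list and the synapsis and cohesin list gave 6 of the 12. Over all rows below 1 in mOSN 6.85% crossed, and over such protein-coding rows 9.63%. Each list holds few low genes and leaves out the 10, so no list count is read as differing from these shares. In meiotic recombination 4 of 27 low genes crossed, among them Msh4, which stabilises crossover intermediates, at 5.03 in O/Tet3 and 0.158 in mOSN, and Rec114, needed for break formation and listed as 2410076I21Rik, at 2.57 in O/Tet3 and 0.302 in mOSN. The other 2 were Helb, a DNA helicase, at 1.54 in O/Tet3 and 0.811 in mOSN, and Cntd1, a crossover factor, at 1.38 in O/Tet3 and 0.903 in mOSN. Both were under the 2-fold bound. Of the synapsis and cohesin list 2 of 20 crossed, both meiotic cohesin subunits. Rad21l was at 4.27 in O/Tet3 and 0.0979 in mOSN, and Stag3 at 2.33 in O/Tet3 and 0.0395 in mOSN. Their partners did not show this, with Smc1b at 0.752 in O/Tet3 and 0.367 in mOSN and Rec8 listed at 0 in O/Tet3 and at 0.397 in mOSN. The axis gene Sycp3 was listed at 0 in both libraries, and Sycp1 was at 0.457 in O/Tet3 and listed at 0 in mOSN. Among recombination genes above 1 in both libraries, Sfr1 was at 102 in O/Tet3 and 23.2 in mOSN and its partner Swi5 at 44.0 in O/Tet3 and 17.4 in mOSN.

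Among regulators of germ cells, 2 of 35 low genes crossed, beside the 6.85% of all low rows and 9.63% of low protein-coding rows. Mybl1, the transcription factor of male meiosis also called A-MYB, was at 4.12 in O/Tet3 and 0.216 in mOSN. Gm4969, the meiotic entry factor Meiosin that works with Stra8, was at 1.52 in O/Tet3 and 0.727 in mOSN. Dmrt1, Nanos2, Ddx4 and Pou5f1 were all below 0.2 in both libraries. In the piRNA list 2 of 22 crossed, Exd1 at 1.67 in O/Tet3 and 0.510 in mOSN and Tdrd6, a chromatoid body protein, at 1.51 in O/Tet3 and 0.0828 in mOSN. Cep55, the abscission protein to which Tex14 binds, was the single crossing gene of 20 in the surface, bridge and metabolism list, at 1.16 in O/Tet3 and 0.130 in mOSN.

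Lists of spermatid and oocyte genes were also counted, beside the 6.85% of all low rows and 9.63% of low protein-coding rows that crossed. At these shares a list of this size can hold few or 0 crossing genes, so a count of 0 is not read as a result. Of 28 low spermatid genes 1 crossed, Oaz3, at 1.57 in O/Tet3 and 0.532 in mOSN. Among protamine and transition protein genes Prm1 was at 0.626 in O/Tet3 and 0.197 in mOSN. Prm2, Prm3, Tnp1 and Tnp2 were listed at 0 in both libraries. Of 21 oocyte genes 0 crossed, and the highest, Ooep, was at 0.795 in O/Tet3 and 0.0527 in mOSN. Gonad somatic cell markers also gave 0 of 15 low genes. Of the 16 marker rows 11 were listed at 0 in O/Tet3 and 9 in mOSN, beside 15184 and 13399 of all 34617 rows. Cyp17a1, Insl3 and Foxl2 were listed at 0 in both libraries, and Amh at 0 in O/Tet3 and 0.0138 in mOSN. Star, at 2.66 in O/Tet3 and 2.41 in mOSN, was the one marker at or above 1. The list summed to 3.002 in O/Tet3 and 3.22 in mOSN.

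Genes known to be silenced by promoter methylation in mouse somatic cells were split. Of 16 such genes, all below 1 in mOSN, 3 crossed, beside 6.85% of all rows below 1 in mOSN. These 3, Dazl, Tex19.1 and Slc25a31, belong to the 10 and were chosen for it, so their count is not read against that share. The other 13 were below 1 in both libraries. Of the 16, 9 were listed at 0 in O/Tet3 and 8 in mOSN, beside 15184 and 13399 of all 34617 rows. Mael, a piRNA factor, was at 0.680 in O/Tet3 and listed at 0 in mOSN, and Asz1 was listed at 0 in O/Tet3 and at 0.564 in mOSN. All 26 listed repressors of germline genes had values above 0 in both libraries. The 2 below 1 in both were Uhrf1, at 0.268 in O/Tet3 and 0.116 in mOSN, and Dnmt3b, at 0.125 in O/Tet3 and 0.165 in mOSN. Of 24 compared repressor genes 3 were at least 2-fold higher in O/Tet3 and 0 lower. That is 12.5% higher, below the 16.5% of all compared rows, and the median log2 ratio was 0.09. Pcgf6, a Polycomb subunit of the E2f6 complex, was at 9.44 in O/Tet3 and 2.81 in mOSN, Wdr5 at 10.5 in O/Tet3 and 4.45 in mOSN, and Hells, a chromatin remodeler needed for methylation, at 2.76 in O/Tet3 and 0.425 in mOSN. The methyltransferase Dnmt3a was at 9.89 in O/Tet3 and 20.1 in mOSN, and E2f6 at 3.67 in O/Tet3 and 4.21 in mOSN.

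Stra8 is known to be induced by retinoic acid in germ cells. Of 17 other genes of retinoic acid response and synthesis, 14 were below 1 in both libraries, as were 21674 of all 34617 rows. The 3 compared were at least 2-fold lower in O/Tet3, beside 12% of all compared rows. With 3 genes nothing is read from this, and a link to the Stra8 value was not tested. The receptor Rarg was at 10.6 in O/Tet3 and 51.9 in mOSN, Rarb at 0.562 in O/Tet3 and 3.62 in mOSN, and Dhrs3, a retinaldehyde reductase, at 0.552 in O/Tet3 and 5.61 in mOSN. The retinoic acid-degrading enzyme Cyp26a1, a target in many tissues, was listed at 0 in O/Tet3 and at 0.0775 in mOSN, while the synthesis enzyme Aldh1a3 was at 0.676 in O/Tet3 and 0.0467 in mOSN.

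The rows most like the 3 highest genes were found by distance in the plane of the log2(value + 1) values of both libraries. Small RNAs, olfactory receptors, pseudogenes and clone-like names were left out, and so were the chosen germline genes themselves. Nearest to Dazl were Crip1, at 49.2 in O/Tet3 and 0.852 in mOSN (distance 1.20), and Slco1a6, at 149 in O/Tet3 and 1.50 in mOSN (distance 1.29). Nearest to Mnd1 were Crip1, at a distance of 0.92, and Tekt2, at 18.9 in O/Tet3 and 0.156 in mOSN (distance 1.13). Zcwpw1 had closer rows, with H2-Ab1 at 11.0 in O/Tet3 and 0.233 in mOSN (distance 0.06) and Sdcbp2 at 10.6 in O/Tet3 and 0.252 in mOSN (distance 0.07). With 2 libraries, this measure has little resolution.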

How the data were processed

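RNA was measured in 2 libraries, O/Tet3 and mOSN, made from sorted cells with the RiboMinus and ScriptSeq kits, per the labels' protocols. The remaining sample, O/Tet3 DNA immunoprecipitated for 5hmC, is not analysed here. Bowtie, Bowtie2, Cuffdiff and mm9 are named in the submitters' processing notes, without versions or roles. The annotation and strand setting are not given in the sources used here. The deposited log2 values are log2(value + 1): 2 to the power of the value minus 1 is a number with 6 or fewer significant digits for 99.3% of O/Tet3 and 99.4% of mOSN values above 0.01 (relative tolerance 1e-09). The deposited log2 ratio equals O/Tet3 minus mOSN. Column names, which shorten the genotypes, gave each column its library.

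Log2 ratios are O/Tet3 over mOSN with a pseudocount of 1, which understates differences of low genes. A row was compared if it reached 1 in O/Tet3 or mOSN and called at 2-fold of value + 1. With 1 library a group there is no test, error or replicate check. Older symbols were matched through RefSeq synonyms, which placed 206 of 210 germ cell genes. Named genes are the 10, up to 6 per list (those that crossed 1, then the largest ratios), fixed partners, neighbours and nearest rows. Others named in lists were chosen after their values were seen. The 10 genes and all lists were chosen with earlier results of these data known. Calling functions were checked on simulated data. Python 3.11.15, numpy 2.4.6 and pandas 2.3.3 were used.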

Additional observations from a re-analysis of the deposited data

How the results depend on the processing

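No paired analysis was possible because both groups consist of 1 library, and for the same reason no library could be left out. The median log2 ratio of the 10 genes was 2.06 when centred on the median of rows expressed in both libraries and 4.50 with a pseudocount of 0.1, against 2.26. All 10 met the thresholds after centring. Without centring, 7 did so with an O/Tet3 value of at least 2, 6 with a mOSN value below 0.1, and 8 with 0.5 as both bounds. The count of the 206 other germ cell genes that crossed was 5 with an O/Tet3 value of at least 2, 3 with a mOSN value below 0.1, and 22 with 0.5 as both bounds, against 12. The counts over all rows were 688, 321 and 1755 under these settings, against 1593. With 0.5 as both bounds the share of low rows was 13.6% for other germ cell genes, against 8.28% of all rows and 11.1% of protein-coding rows, where the bounds of 1 gave 7.02%, 6.85% and 9.63%. All shares of other germ cell genes leave out the 10 genes picked for crossing, and with these put back the share at the bounds of 1 was 12.2%. The cause of the difference between bounds was not tested. Of these germ cell genes 5 were higher with a floor of 5, against 10, and 1 was lower at 3-fold, against 2. Over all rows, 745 were higher and 673 lower at 3-fold, and 1401 higher and 793 lower with a floor of 5, against 2135 and 1552. Stricter bounds count fewer rows by construction. The median of the synapsis and cohesin list, 1.68 over 3 compared genes, changed sign with a floor of 5, to −0.83. Only Sun1 was left at that floor, so no change of direction is read for the list. TCCCGC was in 2 of the 10 promoters when only the 250 bases before the start were searched, since the matches in Mnd1 and Slc25a31 lie after it. Keeping only protein-coding rows, chosen after seeing the data, left 1064 of the 1593 rows. A single read weighs 1.89 times as much in O/Tet3, and Sohlh2, Stra8 and Tex15, all below 2 there, lie nearest to the threshold.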

Other observations

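Some germ cell genes had transcripts in both libraries, and they are named here after their values were seen. Of the 206 other germ cell genes, 35 reached 1 in mOSN, and 2 of these were below 1 in O/Tet3. Brdt, a bromodomain protein of the testis, was at 8.59 in O/Tet3 and 13.5 in mOSN. Elavl2, an RNA-binding protein shared by neurons and germ cells, was at 10.6 in O/Tet3 and 10.3 in mOSN. Clgn, the testis chaperone calmegin, was 1 of the 2 genes at least 2-fold lower, at 39.3 in O/Tet3 and 245 in mOSN, and the other was Odf2, a centriole and sperm tail protein, at 17.8 in O/Tet3 and 38.9 in mOSN. Acrbp, an acrosomal protein, was at 6.22 in O/Tet3 and 1.40 in mOSN, and Taf9b, a TFIID-related subunit, at 28.7 in O/Tet3 and 5.31 in mOSN.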
